A study of Drosophila melanogaster with 3 samples.

Results

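HmgD, HmgZ, Ssrp, Dsp1 and D1 encode DNA-binding chromatin proteins of Drosophila melanogaster that carry an HMG box or bind A/T-rich DNA. These 5 genes, of 13945 protein-coding genes on the chromosome arms, were selected by name with the signals of the present data already known, chiefly a strong site inside HmgD and HmgZ. The values below are therefore a description, and no test was made on them. The data are regions called from chromatin immunoprecipitation and sequencing (ChIP-seq), which maps where a protein sits on the genome. All samples form 1 group of 3 biological replicates. They are whole embryos, males and females pooled, aged 0 to 10 hours, from a transgenic line that stably makes CG16815, an uncharacterised protein, with GFP at its C terminus. The protein was pulled down with an antibody against GFP. All replicates come from the same line, no control library or second condition was analysed here, and the whole embryo mixes all cell types of these stages. Signal that does not depend on the tagged protein could therefore not be told apart from binding.

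The lists held 30000, 21989 and 27358 called regions in replicates 1, 2 and 3, background included, and 18764 in a list called on the 3 replicates pooled. The final list of 3922 regions, here called passing sites, was made by the authors at a threshold on the irreproducible discovery rate (IDR), a measure of agreement between replicates. It held the 3922 strongest regions of the pooled list. A few regions share their bounds and differ in summit, and each summit is counted. The signal of a region is the value the authors' peak caller gave it, on a scale that differs between lists, so lists are compared by rank, 1 being the strongest. N stands for 3922, the size of the final list, and the N best regions of a replicate serve as its counterpart of the final list. The lists give no read counts, so the sequencing depth is unknown.

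Some HMG box proteins bend DNA through the minor groove with little regard for sequence and loosen the packing of nucleosomes. HmgD and HmgZ are small, abundant proteins of this kind, and HmgD is known as a component of the chromatin of early embryos before the linker histone H1 builds up. Ssrp is a subunit of FACT, the complex that takes nucleosomes apart and rebuilds them as polymerases pass. Dsp1, the fly relative of mammalian HMGB proteins, acts as a corepressor with the Rel protein Dorsal and takes part in recruiting Polycomb group proteins. D1 binds A/T-rich satellite DNA through AT-hook motifs and helps to hold satellite DNA of different chromosomes together in chromocentres.

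The sequence around the summit, the position of highest signal in a region, is given for the 2 passing sites at Dsp1 and for the strongest called region near D1, because these show what kind of sequence lay at sites of high, middle and just insufficient rank. Each line gives the plus strand of dm6, 100 bp to either side of the summit. Capitals mark any match within 50 bp of the summit to the motifs searched.
Dsp1, upstream site, chrX:16332919-16333119: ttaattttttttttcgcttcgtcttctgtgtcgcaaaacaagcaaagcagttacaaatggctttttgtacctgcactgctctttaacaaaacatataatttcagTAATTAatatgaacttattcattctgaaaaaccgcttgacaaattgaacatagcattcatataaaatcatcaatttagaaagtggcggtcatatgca
Dsp1, intron site, chrX:16335248-16335448: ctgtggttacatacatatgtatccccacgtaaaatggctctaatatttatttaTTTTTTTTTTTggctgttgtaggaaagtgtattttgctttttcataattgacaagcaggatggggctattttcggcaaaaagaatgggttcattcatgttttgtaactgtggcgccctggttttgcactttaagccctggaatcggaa
D1, region that did not pass, chr3R:9237866-9238066: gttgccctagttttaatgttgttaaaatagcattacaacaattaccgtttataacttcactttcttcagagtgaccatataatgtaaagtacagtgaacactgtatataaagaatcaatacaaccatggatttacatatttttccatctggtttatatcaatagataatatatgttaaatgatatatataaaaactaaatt
The capitals in the upstream site are TAATTA, the core bound by many homeodomain proteins, which started 4 bp after the summit. Those in the intron site are a run of T on this strand, counted as 6 overlapping matches to an A tract, and the D1 region had no match.

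Passing sites lay at 3 of the 5 genes, taking each gene with 5 kb on both sides. HmgD and HmgZ shared 3 sites, Dsp1 had 2, and Ssrp and D1 had none. Among all coding genes 41.8% had a passing site in such a window, so 3 of 5 is not far from the background. The windows differ in length, 25270 bp for HmgD, 20374 bp for HmgZ, 17013 bp for Dsp1, 12644 bp for Ssrp and 12572 bp for D1, against a median of 12166 bp over all coding genes, and the 3 genes with sites were those with the longest windows. By the best passing signal in the window, HmgD and HmgZ tied at place 19 of 13945 coding genes and Dsp1 took place 802.

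HmgD (FBgn0004362, 21701458 to 21716727, plus strand) and HmgZ (FBgn0010228, 21697488 to 21707861, minus strand) overlap head to head on chromosome arm 2R of dm6. The strongest of their sites spanned 21703116 to 21703695, with the summit at 21703384 in an intron of both genes. It had a signal of 2450.5 and ranked 7 in the final list. It ranked 6, 5 and 17 in replicates 1, 2 and 3, a mean of 9.33 ± 6.66 (SD, n = 3). All replicates thus placed it near the top, with replicate 3 lowest. In each list the signal stood far above that of a typical called region, at 41.4, 47.4 and 21.2 times the list median in replicates 1, 2 and 3. Each of these lists includes background, so the folds depend on how much of it was listed and are not compared between replicates. Over the passing sites of the final list the median signal was 218.4. The replicate summits fell within 2 bp of each other. The median distance between the outermost replicate summits was 50.5 bp over the 3416 passing sites found in all 3 replicates, of which 18 (0.527%) had a distance of 2 bp or less.

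The annotation gives both genes several transcription start sites (TSSs). The strongest summit lay 554 bp upstream of the HmgZ TSS at 21702830, 1117 bp downstream of the HmgZ TSS at 21704501 and 1926 bp downstream of the distal HmgD TSS at 21701458. It was 9972 bp from the next HmgD TSS, at 21713356. The site is thus nearest a start of HmgZ, without lying at any annotated start of either gene. Replicate 3 alone called a further summit at 21703584, with a signal of 185.8 and rank 178, that lay within the bounds of the passing region. Replicates 1 and 2 and the pooled list held no separate summit there.

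A second site had its summit at 21700822, in an intron of HmgZ and 636 bp upstream of the distal HmgD TSS. Its signal was 223.3, close to the median of 218.4 over passing sites, and its rank was 1902. It ranked 1413 in replicate 1 and 1624 in replicate 2. Replicate 3 had no summit within 150 bp, its nearest being 834 bp away, so the site rested on replicates 1 and 2. The third site, with the summit at 21706521, lay in an intron of both genes, 1340 bp downstream of the HmgZ TSS at 21707861, the farthest upstream start of HmgZ. It had a signal of 165.3 and rank 2851, and ranked 2229, 3474 and 3270 in replicates 1, 2 and 3, a mean of 2991 ± 668 (SD, n = 3). Replicate 2 called another summit nearby, at 21706203 with rank 2983, which was above its own call at the third site. The pooled list held that summit at rank 4991, below the threshold, and neither replicate 1 nor replicate 3 had a summit within 150 bp of it.

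**Figure D1:**
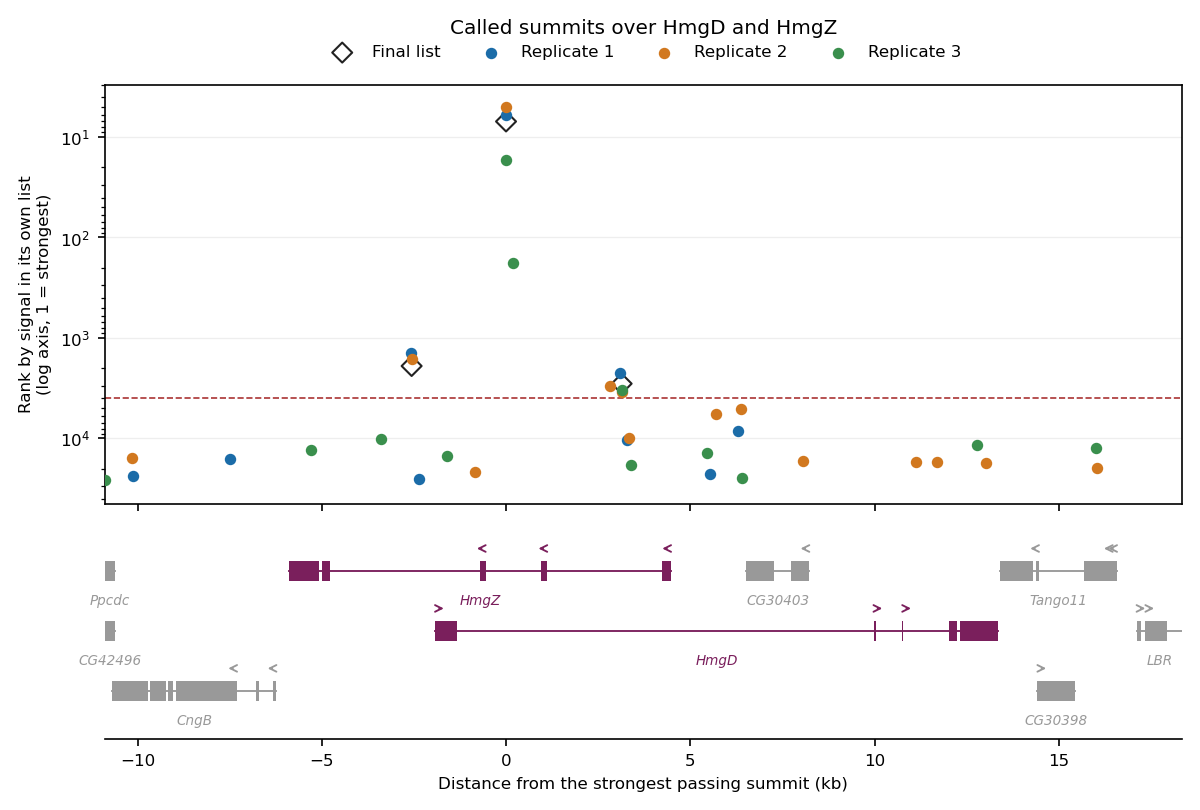
Summits of the final list and of the 3 replicate lists within 5 kb of HmgD and HmgZ, by distance from the strongest passing summit (kb) and rank in its own list (log axis, strongest at the top), with the annotated genes below (boxes are exons, arrows TSSs, other coding genes in grey). Diamonds are the 3 passing sites, dots the replicates, and the dashed line is rank 3922. At 0 kb the replicates ranked 6, 5 and 17, and at -2.6 kb no dot of replicate 3 accompanies the diamond.

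Called summits, those of the passing sites included, were frequent around HmgD and HmgZ. Their joint window of 29.2 kb held 9 called summits of replicate 1, 14 of replicate 2 and 12 of replicate 3, of which the summits at 21703383 and 21703584 in replicate 3 belong to 1 region. This was 3.08, 4.79 and 4.10 summits per 10 kb, against 2.24, 1.64 and 2.04 over the chromosome arms. Most of these ranked below N, and 3, 4 and 3 of them were among the N best. The densities include the N best summits, and no density was worked out for the weaker calls alone. The promoters that start the shorter HmgD transcripts, at 21713356 and 21714136, carried no passing site. The nearest call there was a summit of replicate 2 at 21714502, 366 bp downstream of the latter, at rank 16978.

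Dsp1 (FBgn0278608) lies on the X chromosome at 16333612 to 16340624, on the plus strand, and had 2 passing sites. The stronger, at 16332815 to 16333197 with the summit at 16333019, is the upstream site whose sequence is printed above. It lay 593 bp upstream of the first Dsp1 TSS. It also lay in an intron of CG9921, a gene on the other strand whose TSS at 16333600 is 581 bp away and thus nearer. The assignment to Dsp1 or to CG9921 cannot be told apart by distance. The signal was 670.2, rank 285, and the site ranked 309, 275 and 382 in replicates 1, 2 and 3, a mean of 322 ± 54.7 (SD, n = 3). Its place was steady over the replicates, whose summits spanned 26 bp.

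The second Dsp1 site, at 16335140 to 16335555 with the summit at 16335348, lay in an intron of Dsp1, 1736 bp downstream of the first TSS and 836 bp upstream of an internal TSS at 16336184. It had a signal of 181.6 and rank 2511. Replicates 1, 2 and 3 ranked it 2755, 2093 and 2754, a mean of 2534 ± 382 (SD, n = 3). The replicates called it at less exact positions, with summits 151 bp apart at the outermost. Besides these sites the window held 1 further call, of replicate 2, in the 3' UTR of Dsp1 at rank 16582. The 2, 3 and 2 calls of replicates 1, 2 and 3 came to 1.18, 1.76 and 1.18 per 10 kb, below the average of the chromosome arms in replicates 1 and 3 and slightly above it in replicate 2 (2.24, 1.64 and 2.04).

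D1 (FBgn0000412, 3R, 9238083 to 9240654, minus strand) had no passing site, but a pooled region fell just short of the threshold. Its summit at 9237966 had a signal of 119.0 and rank 4134, where the last passing site had a signal of 124.8 at rank 3922. The weakest passing site at the 5 genes, the third of HmgD and HmgZ, had 165.3. This region lay 117 bp beyond the 3' end of D1 and 2301 bp from its nearest TSS. It was 284 bp upstream of a TSS of pum, the gene of the RNA-binding repressor Pumilio, which was named here after the values were seen. By distance to a TSS it is therefore a region upstream of pum, and it is given here because it lay within 5 kb of D1. The replicates differed over it. It stood at rank 3455 in replicate 2, among the N best, and at rank 6081 in replicate 3, whereas replicate 1 had no call in the whole D1 window, the nearest being 8715 bp away. The q-value, the caller's false discovery rate, was 0.00206 in the pool, 0.000132 in replicate 2 and 0.166 in replicate 3. With all pooled regions of a q under 0.05, in place of the final list, D1 would be the fourth of the 5 genes with a region, against 52.0% of all coding genes. At the TSSs of D1 itself, within 500 bp, no list held a summit. Inside the gene, the pooled list held a summit at 9238166 in the 3' UTR of D1, at rank 6709. Replicates 2 and 3 had a summit in that UTR too, at 9238170 (rank 5117) and 9238222 (rank 24353).

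Ssrp (FBgn0010278, 2R, 23806361 to 23809004, minus strand) had no call of high rank. Neither the final list nor the pooled list nor replicate 1 had a summit in its window. Replicate 2 had 2, the better at rank 10799 in a coding exon of Ssrp, 904 bp downstream of the TSS. Replicate 3 had 3, the best at rank 15136 in a coding exon of the neighbour CG5539. No call of replicate 2 lay at the place of a call of replicate 3. Per 10 kb this was 0, 1.58 and 2.37 calls in replicates 1, 2 and 3, against 2.24, 1.64 and 2.04 over the chromosome arms, so only replicate 1 was clearly below its own average. At the depth of these libraries, which is unknown, no passing site was detectable at Ssrp.

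**Figure D2:**
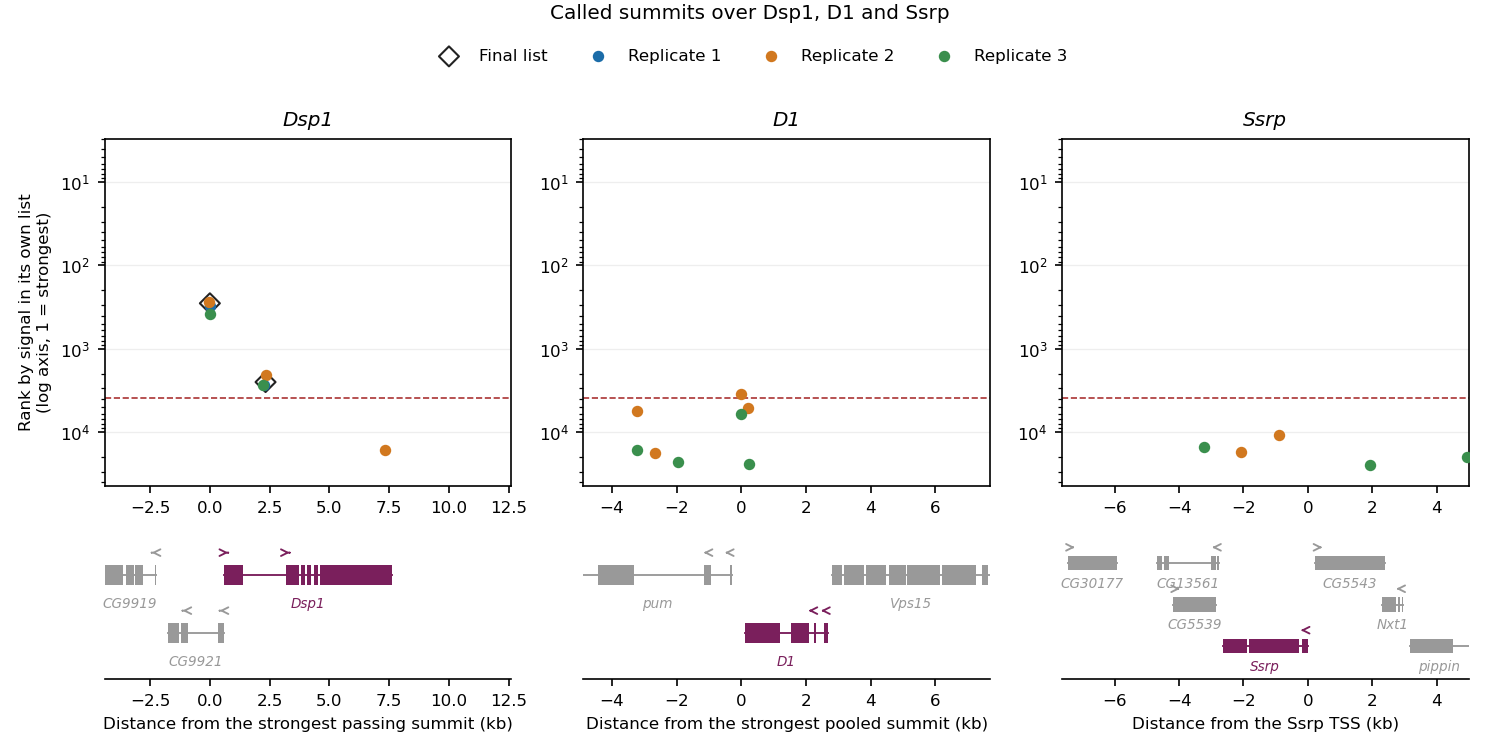
Summits of the same lists within 5 kb of Dsp1, D1 and Ssrp, drawn as for HmgD and HmgZ, with distance in kb from the strongest passing summit, the strongest pooled summit and the TSS respectively. The 2 passing sites of Dsp1 carry dots of all 3 replicates, those of replicate 1 largely hidden behind the others, D1 has a dot of replicate 2 just above the dashed line at rank 3922, and Ssrp has dots of replicates 2 and 3 far below it.

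Counted in each replicate alone, the N best regions touched the windows of HmgD, HmgZ and Dsp1 in all 3 replicates, and that of D1 in replicate 2 as well. This was 3, 4 and 3 of the 5 genes, against 40.6, 42.6 and 39.6% of all coding genes in replicates 1, 2 and 3. Of the 5 passing sites, 4 had a summit within 150 bp in every replicate list (background 87.1% of passing sites), and the same 4 were among the N best of all 3 replicates (background 56.9%). The final list was made from these replicates, so such recovery is partly built in. Ordered by rank, the strongest HmgD and HmgZ site (5 to 17), the upstream Dsp1 site (275 to 382) and the second HmgD and HmgZ site (1413 and 1624, in the replicates that had it) did not overlap where they were called. The second HmgD and HmgZ site was not called in replicate 3, which ranked the intron site of Dsp1 2754 and the third site of HmgD and HmgZ 3270, so its place above these sites held in replicates 1 and 2 only. The intron site of Dsp1 (2093 to 2755) and the third site of HmgD and HmgZ (2229 to 3474) overlapped, so their order was not resolved.

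**Figure D3:**
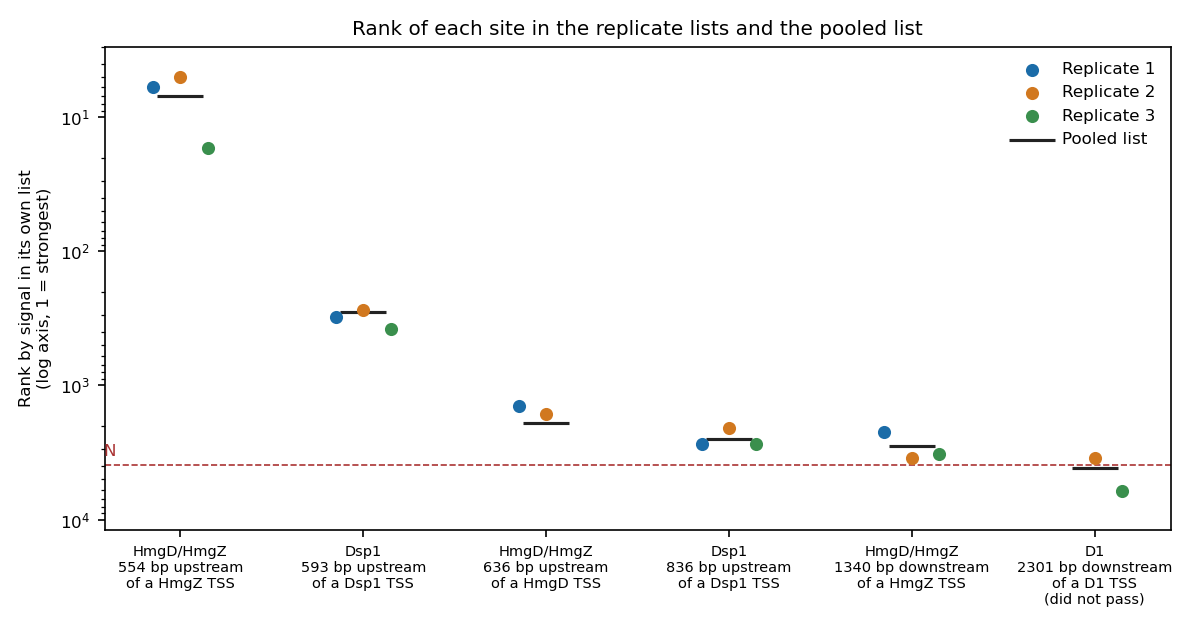
Rank of each of the 5 passing sites and of the D1 region in the replicate lists (dots) and the pooled list (bars), on a log axis with the strongest at the top and N = 3922 dashed. The ranks of the first 2 sites are apart from all others in every replicate, those of the 2 weakest passing sites overlap, and a dot is absent where a replicate had no summit within 150 bp (replicate 3 at the HmgD and HmgZ site 636 bp upstream of HmgD, replicate 1 at D1).

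Most of the passing sites lay near a TSS of these genes without lying at it. None of the 5 genes had a passing summit within 500 bp of a TSS, where 15.9% of all coding genes had one. With 5 genes, none is not far from that background. Over all passing sites 43.7% lay within 500 bp of a coding TSS. Within 1000 bp HmgD, HmgZ and Dsp1 had one, against 18.4% of all coding genes. Any TSS of a gene counts here, and HmgD and HmgZ have 3 each and Dsp1 has 2. The sites lay 554 bp (HmgZ), 593 bp (Dsp1), 636 bp (HmgD) and 836 bp (internal TSS of Dsp1) upstream of a TSS, so that 4 of the 5 fell more than 500 and up to 1000 bp upstream, and the other, the third of HmgD and HmgZ, lay 1340 bp downstream of its nearest TSS. Over all passing sites 12.3% lay in that range upstream of any coding TSS. The range was chosen after the positions were seen, and with 5 sites it describes these genes only. All 5 sites lay in introns, 1 of them only in an intron of CG9921, where the background was 47.6% of passing sites.

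**Figure D4:**
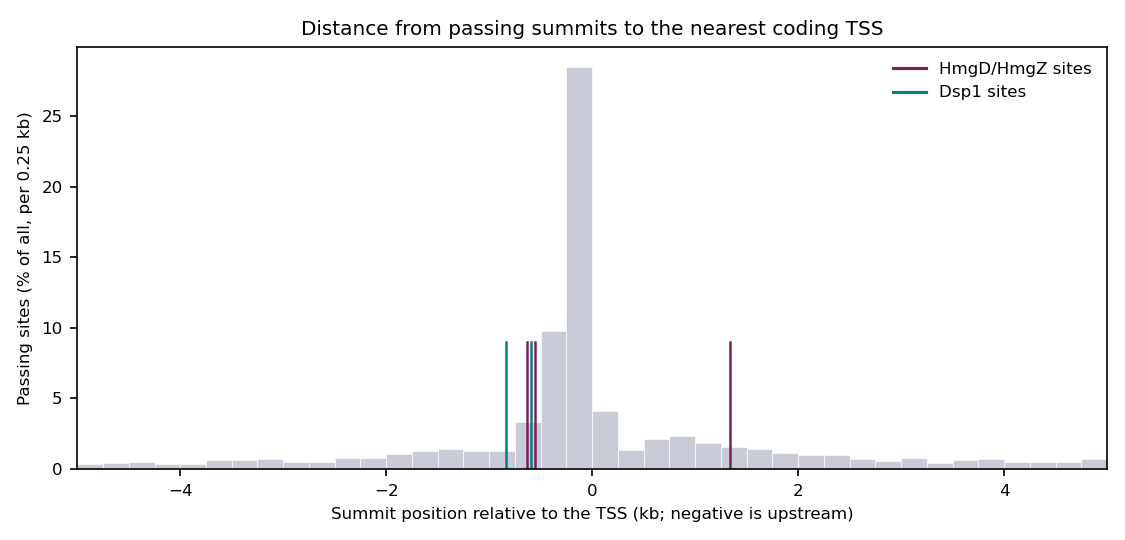
Passing summits by distance to their nearest coding TSS (bars, % of 3922 sites per 0.25 kb, negative upstream), with the sites of HmgD and HmgZ and of Dsp1 as lines at their distance from the nearest TSS of those genes. The bars use the nearest coding TSS of any gene, and the lines only TSSs of HmgD, HmgZ and Dsp1, of which 4 stand between 554 and 836 bp upstream. Measured as the bars are, the upstream Dsp1 site would stand 581 bp downstream of CG9921.

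At 4 of the 5 sites the DNA held less A and T than the median passing site. A median splits all passing sites about evenly, so 4 of 5 is not far from the background. The share of A and T within 50 bp of the summit was 63.4% at the strongest HmgD and HmgZ site, 49.5% at the second and 65.3% at the third. At Dsp1 it was 71.3% at the upstream site and 66.3% at the intron site, and at the D1 region it was 69.3%. The median over all passing sites was 69.3%, so only the upstream Dsp1 site stood above it among the 5. The second HmgD and HmgZ site was in the lowest 3.70% of passing sites. Windows of the same length placed to either side of the summit held less at the strongest and the third HmgD and HmgZ sites, 54.95 and 42.1%. At the Dsp1 sites they held 69.8% each, and at the second HmgD and HmgZ site 50%, close to the summit value. Within 100 bp of the summit the median over passing sites was 66.7%, and the 5 sites kept their side of it. The D1 region then held 74.6%, at percentile 93.3 of passing sites, against percentile 54.7 within 50 bp.

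Several of the motifs searched had no match at these sites, and those motifs were uncommon over all passing windows too. The search covered both strands within 50 bp of the summit and used the DRE (TATCGATA), the GATA core (AGATAA), the homeodomain core (TAATTA), the BEAF-32 core (CGATA, which the DRE contains), the GAGA factor element (GAGAGAG), the Myc E-box (CACGTG), the Snail E-box (CAGGTG), Motif 1 (GGTCACACT) and an A tract (AAAAAA). The strongest HmgD and HmgZ site matched none of the 9, but the share of passing windows without any match was not worked out. The second held the BEAF-32 core, which was in 13.2% of all passing windows, and the third an A tract, in 27.1%. Beside the TAATTA of the upstream Dsp1 site, in 10.99% of passing windows, and the A tract of the intron site, no other match was present. In pooled regions that did not pass, these shares were 11.1% for the BEAF-32 core, 21.9% for the A tract and 7.11% for TAATTA. Of the motifs without a match, the GATA core was in 8.49% of passing windows and the Snail E-box in 2.01%. The DRE was in 0.943%, the Myc E-box in 0.688%, the GAGA factor element in 0.561% and Motif 1 in 0.280%. A match is a string of letters and not a site of binding, and its absence says nothing of the factor.

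The passing sites most like the strongest HmgD and HmgZ site in their ranks over the 3 replicates, out of 3412 others found in all of them, had coding TSSs of CG11050, Ugalt and Tcs5 nearest to them. The distance in log2 rank was 1.00 for CG11050 (ranks 8, 8 and 26), 1.25 for Ugalt, a transporter of UDP-galactose (3, 3 and 19), and 1.32 for Tcs5 (9, 10 and 11). The sites nearest Ugalt and Tcs5 lay 43 and 105 bp upstream of the TSS. That nearest CG11050 lay 1027 bp downstream, so the 3 sites did not all share a position.

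Genes related to the 5 by family or function were examined to place these values. Of 9 other HMG box genes outside the Sox family, 2 had a passing site within 500 bp of a TSS, against the background of 15.9%. They were bbx, with a signal of 823.8 and replicate ranks of 148, 139 and 559, and cic, the gene of the repressor Capicua, with 346.2 and ranks of 2037, 1536 and 328. The testis genes tHMG1 and tHMG2, the mitochondrial factor TFAM, the Brahma complex genes Bap111 and polybromo, the Wnt effector pan and CG12104 had none there.

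The partner of Ssrp in FACT, the Spt16 gene dre4, did have a passing site at its promoter, unlike Ssrp. It was weak, with a signal of 137.1 and rank 3545, and ranked 6781, 4599 and 1575 in replicates 1, 2 and 3, so that only replicate 3 had it among its N best. Of 9 genes of this partner and other histone chaperones, 2 had a promoter site, near the 15.9% of all coding genes, the other being Spt6 (176.2, ranks 2179, 2493 and 4023). Within 5 kb of Caf1-55, a subunit of chromatin assembly factor 1, lay a site of 2257.5 at rank 10, in the range of the strongest HmgD and HmgZ site. BigH1, the linker histone of early embryos, had no passing site within 5 kb.

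Of 9 genes of satellite and heterochromatin proteins, among which D1 acts, 3 had a promoter site (background 15.9%). These promoter sites were weak, with signals of 141.5 at Su(var)3-7, 136.9 at the gene of the heterochromatin protein HP1a, and 125.05 at HP1b. The last stood close to the threshold at rank 3908, and ranked 17431, 2743 and 14435 in the replicates. Farther from a TSS but within 5 kb of the gene, the HP1a gene also had a site of 1161.2 (rank 76) and XNP, a chromatin remodeller, had one of 1165.1 (rank 74). The gene prod, whose product is another satellite-binding protein, had none, its nearest passing site being 23044 bp from a TSS.

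Partners of Dsp1 in repression by Dorsal and in Polycomb recruitment had promoter sites at 6 of 10 genes, against 15.9% of all coding genes. The strongest were gro, the Groucho corepressor (696.6, ranks 334, 238 and 309), cact, the inhibitor that holds Dorsal in the cytoplasm (522.9, ranks 370, 498 and 577), Trl, the GAGA factor (425.8, ranks 443, 675 and 1810), and grh, a transcription factor (228.7, ranks 2920, 2139 and 1323). Within 5 kb of Trl lay a stronger site, of 2264.8 at rank 9. The others with a promoter site were psq and pho. The pho site ranked 1865 and 3174 in replicates 1 and 3 and had no summit in replicate 2. The gene of Dorsal itself, dl, had no passing site within 5 kb. Within 5 kb 9 of these 10 genes had a passing site, and 5 of the 9 HMG box genes, 4 of the 9 chaperone genes and 7 of the 9 heterochromatin genes, against 41.8% of all coding genes. The windows follow the length of each gene and were not matched between lists. Nor was the number of TSSs per gene, although the promoter count takes any TSS. The lists were drawn up with earlier results of these data known, so these counts describe and do not test them.

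**Figure D5:**
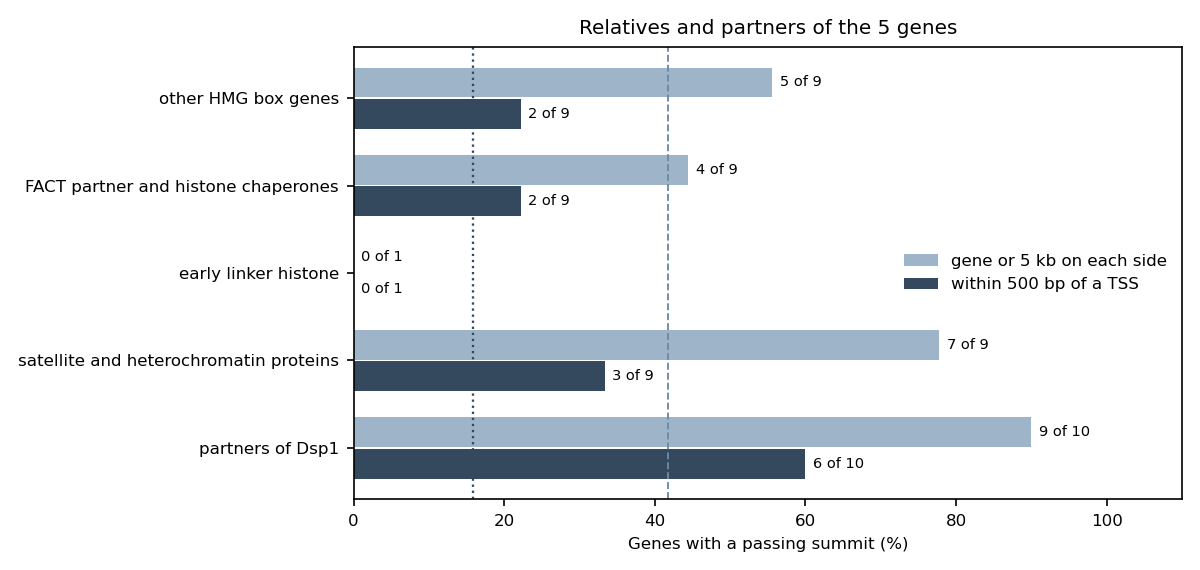
Share of each list of related genes with a passing summit in the gene or within 5 kb (light bars) and within 500 bp of a TSS (dark bars), with counts beside the bars. The dashed line is 41.8% and the dotted line 15.9%, the shares over all coding genes. Partners of Dsp1 reach 9 of 10 and 6 of 10, and the 1 early linker histone gene is at 0 for both.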

How the data were processed

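ChIP-seq regions of 3 biological replicates of CG16815-GFP embryos, 1 group, were read from narrowPeak lists on dm6. Each replicate list and the pooled list hold peaks and background, and the final list was derived from them, per the notes the authors deposited. The authors' signal value of each region is deposited with no normalization stated, and the -log10 of a q-value is deposited beside it. Sources used here do not state which aligner or peak caller was run, nor the IDR threshold. The lists on dm3 were not used. The depth of each sample is unknown.

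Genes and TSSs came from the Ensembl release 115 annotation (BDGP 6.54), and sequence from the RefSeq Release 6 genome. The arms of both have dm6 coordinates. Transposable elements were left out. Summits were taken as the region start plus the summit offset, written 1-based. The strongest summit of a replicate within 150 bp of a passing summit counted as the same site. Windows were the gene with 5 kb on both sides, and promoters 500 bp around any TSS. A q under 0.05 was used only as an alternative.

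The members, lists, motifs and ranges were chosen with earlier results of these data known. The genes named were the 5 members, genes with a TSS nearer to a passing site, up to 4 promoter-bound genes per list by signal, and the nearest coding genes of the 3 sites most alike in log2 rank. Further names (pum, prod, BigH1, dl, XNP, Caf1-55 and the unbound list genes) were added after their values were seen. No test was run. The counting was checked on simulated summits at known places. Python 3.11.15 and pandas 2.3.3 were used.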

Additional observations from a re-analysis of the deposited data

How the results depend on the processing

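Under other settings 26 counts and mean ranks stayed within the margin set for them, and 4 counts moved. The margin was 1.5 times for counts and 1 SD of the replicates for mean ranks. The 6 shares of A and T were also counted as unchanged, but no margin is stated for them. Within 100 bp of the summit the share at the D1 region was 74.6%, against 69.3% within 50 bp. Its percentile among passing sites rose from 54.7 to 93.3, so its standing was not stable. The number of passing sites in the windows was 5, and 3 with the stronger 1961 sites of the final list. It was 8 with all pooled regions of a q under 0.05, a setting chosen after seeing the data, under which D1 joined HmgD, HmgZ and Dsp1 (background 52.0% of coding genes). D1 also joined them with 10 kb flanks, which held 7 passing sites (background 56.7%). No gene had a passing summit within 500 bp of a TSS, and 3 had one within 1000 bp (backgrounds 15.9 and 18.4% of coding genes). Sites found in all 3 replicates numbered 4, and 2 when summits had to lie within 50 bp. Leaving out each replicate in turn gave 4 to 5 such sites, and a mean rank of 5.5 to 11.5 for the strongest HmgD and HmgZ site and of 292 to 345.5 for that of Dsp1. Without replicate 3 the mean rank of the HmgD and HmgZ site was 5.5, against 9.33 with it. Some of these settings could not have moved a value beyond its margin, so they say nothing of stability. Leaving out 1 of 3 replicates shifts a mean by less than 1 SD. Without a replicate, or with summits within 300 bp, the count of 4 sites could only stay or become 5. No paired analysis was possible because the samples form 1 group and the results come from no test. Depth is unknown, so an absent site may lie below detection.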
